A study of Mus musculus with 192 samples.

Results

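Dendritic cells, which take up antigen and show it to T cells, were grown from mouse bone marrow in 15 ng per mL GM-CSF and given CpGB alone, to be compared with cells labelled Ctrl. These are 2 of 64 groups in the series, each of 3 libraries, so that the comparison rests on 6 libraries, found by their names in the count table. CpGB is the name used in this field for a class B CpG oligodeoxynucleotide, a short synthetic DNA with unmethylated CG pairs. The labels give neither its sequence, nor its dose, nor what the Ctrl wells received. The cells of every group came from female C57BL/6J mice aged 6 to 8 weeks with no altered gene named, were plated at 100000 cells per well, rested overnight and were stimulated for 6 hours. The groups used beside these are LPS alone (lipopolysaccharide), PAM alone, HMW alone and HMW with CpGB, each with 3 libraries and each under the name its label carries. No sorting of the cells is named, and the labels do not say whether the 3 libraries of a group came from separate mice, cultures or wells, so p-values measure only the spread between these libraries, which may be technical.

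CpG DNA is detected by Toll-like receptor 9 (TLR9), which is carried to endosomes by UNC93B1, is cut there by cathepsins and signals through the adaptor MyD88. MyD88 assembles IRAK kinases and TRAF6, which lead to the NF-kB and AP-1 transcription factors and to interferon regulatory factors. In dendritic cells this pathway is known for inducing cytokines such as IL-12 and TNF, for raising costimulatory proteins, and, mainly in plasmacytoid dendritic cells, for type I interferon. PAM is the usual short name of lipopeptides that signal through MyD88 from the cell surface, whereas LPS acts through TLR4, which uses both MyD88 and a further adaptor, TRIF, that leads to interferon-beta. These pathways are background and were not measured here.

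Expression was read as counts of unique molecular identifiers (UMIs, tags that mark single cDNA molecules) per gene. Ctrl libraries held 73431 ± 14389 UMIs (SD, n = 3) and CpGB libraries 166742 ± 60467, with CpGB replicate 1 the shallowest of its group at 98306. Levels are given as CPM, UMI counts scaled to a common library total with TMM factors, for replicates 1, 2 and 3 in that order, and 1 UMI was worth 9.60 to 13.9 CPM in the Ctrl libraries. The transcript of Tlr9 itself had no count in any library of the 6 groups and 7 counts in the whole series, so its level could not be compared at this depth (3 counts would be 5.82 CPM over the CpGB group and 11.7 CPM over Ctrl). The labelled cell type was checked by markers. Itgax, which encodes CD11c, stood at 416, 387 and 461 CPM in Ctrl and 446, 327 and 392 CPM with CpGB, and MHC class II genes were abundant, but the dendritic cell genes Flt3 (1 and 3 counts in Ctrl and CpGB) and Zbtb46 (0 and 2) were almost uncounted. Summed macrophage markers were present at similar levels (3407 to 3552 CPM in Ctrl, 3431 to 4012 CPM with CpGB), as were granulocyte markers (662 to 942 and 835 to 902 CPM). The plasmacytoid list summed to 55.4 to 99.8 CPM and 78.4 to 117 CPM, with its defining genes Siglech at 2 and 0 counts and Ly6d at 0 and 1. B cell, T and NK cell, stromal and erythroid markers had at most 3 counts a list in either group. The mast cell and basophil list had 7 counts in Ctrl and 2 with CpGB (0 to 38.4 and 0 to 9.22 CPM), and the list of conventional type 1 dendritic cells 8 and 27 (13.9 to 48.0 and 35.7 to 77.6 CPM). Of the 7 macrophage markers tested, 2 were called higher with CpGB, Fcgr1 and Cd14, and 1 lower. Only these 2 of the 7 lay above 0 (median log2 fold change -0.10). The part of cell makeup in the results was not tested. In bulk RNA, fewer cells of a type and less RNA per cell cannot be told apart.

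CpGB changed a broad set of genes. With a call meaning an adjusted p under 0.05 and at least a 2-fold difference (1 on the log2 scale) in edgeR's quasi-likelihood test, 508 of 4720 tested genes were higher (10.8%) and 296 were lower (6.27%). The CpGB libraries lay wholly above Ctrl for 18.6% of tested genes and wholly below for 15.3%. The median log2 fold change over all tested genes was -0.03. The split depended on the scaling: relative to a median shifted to -0.13, RLE factors gave 455 higher and 367 lower, and library size alone, with a median of -0.25, gave 392 and 491. Without CpGB replicate 1, the shallowest of its group, 575 were higher and 236 lower. Every fit with a library left out redid the filter and the scaling (5031 genes tested in this one). Such fits therefore differ from the main fit by more than that library. CpGB libraries were the deeper ones, and with every library thinned to 46564 UMIs, the lowest total of the series, 308 were called higher and 126 lower.

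Among the 10 largest rises, ranked over called genes with at least 100 CPM in 1 of the groups and no overlap of libraries, were inflammatory and interferon-inducible genes. Il1b, the cytokine interleukin-1 beta, stood at 319, 362 and 259 CPM in the Ctrl libraries and 5182, 4958 and 6488 CPM in the CpGB libraries, 17.9-fold higher (log2 4.16 ± 0.17 SE, adjusted p 2.2e-62). Saa3, an acute-phase protein, went from 360.1, 461 and 384 CPM to 9102, 6658 and 7055 CPM (18.8-fold, adjusted p 6.3e-44). The groups were far apart for both genes, with little spread inside either group. Igtp, an interferon-inducible GTPase, rose from 0, 24.9 and 19.2 CPM to 243, 311 and 341 CPM (log2 4.24 ± 0.47). The membrane protein gene Ms4a4c rose from 13.9, 24.9 and 19.2 CPM to 262, 204 and 516 CPM and Gm14446 from 13.9, 12.5 and 19.2 CPM to 165, 199 and 392 CPM, both with replicate 3 the highest CpGB library. The other 5 had 1 Ctrl count each, so their ratios are loosely bounded: Slco3a1, an organic anion transporter, was higher by a ratio of 73.1 (95% counting interval 12.9 to 2907), the chemokine gene Ccl17 by 44.8 (95% counting interval 7.83 to 1787), Papd7, a poly(A) polymerase, by 28.3 (95% counting interval 4.89 to 1139), Zfp811 by 26.9 (95% counting interval 4.62 to 1080.2) and Lad1 by 25.4 (95% counting interval 4.35 to 1021).

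The 10 largest falls, chosen by the same limits, held no cytokine gene. Daglb, the lipase that makes the lipid messenger 2-arachidonoylglycerol, stood at 152, 162 and 211 CPM in Ctrl and 0, 5.11 and 9.22 CPM with CpGB, 46 against 3 counts, a Ctrl-to-CpGB ratio of 30.8 (95% counting interval 9.91 to 155). Hip1, an endocytic adaptor, stood at 125, 87.3 and 96.0 CPM and 9.70, 0 and 4.61 CPM (ratio 26.1, 95% counting interval 6.54 to 227), and Adssl1, an enzyme of AMP synthesis, at 111, 87.3 and 106 CPM and 9.70, 10.2 and 0 CPM (ratio 17.4, 95% counting interval 5.34 to 90.0). Arrb1, which encodes beta-arrestin 1, fell from 83.1, 125 and 134 CPM to 19.4, 0 and 9.22 CPM, and Slc37a2, a sugar-phosphate transporter, from 139, 162 and 173 CPM to 9.70, 15.3 and 9.22 CPM (12.9-fold lower). Others were Eepd1 (-3.94 log2), Hs6st1, a heparan sulfate sulfotransferase (-3.84), Rcbtb2 (-3.73) and Stac2 (-3.50).

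**Figure D1:**
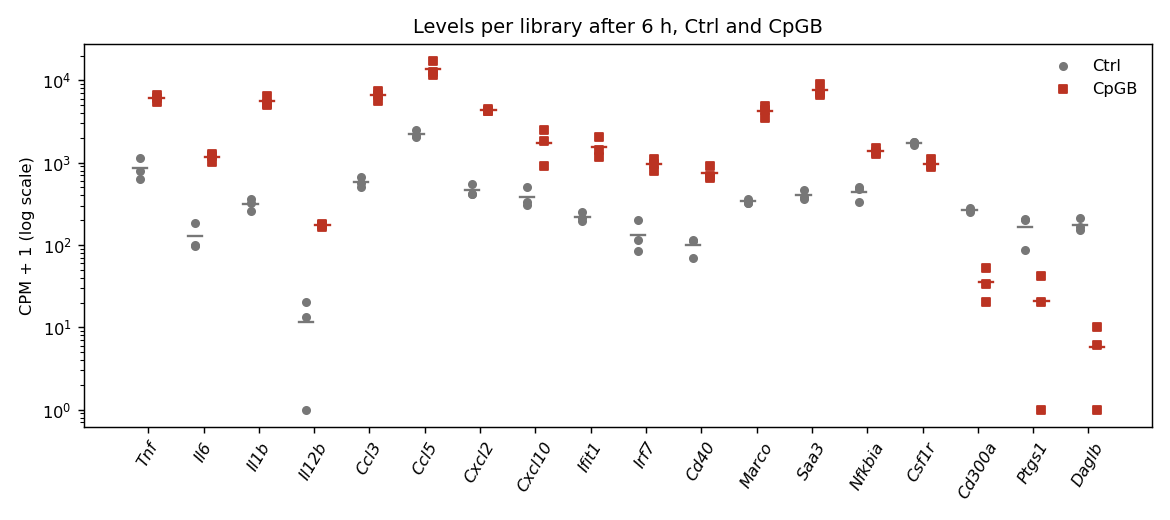
Levels of single genes in each of the 3 Ctrl libraries (grey circles) and the 3 CpGB libraries (red squares), as CPM + 1 on a log axis, with lines at the means. CpGB libraries lay above all Ctrl libraries for the cytokine, chemokine and interferon-response genes on the left and below them for Csf1r, Cd300a, Ptgs1 and Daglb on the right.

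Of the genes that handle TLR9, 15 were listed and 14 tested, with 1 called higher (against 10.8% over all genes) and none lower by edgeR (at an unadjusted p under 0.05, 2 were higher and 3 lower, and DESeq2 called 1 lower, Ctsl), and a median of -0.23. The 1 call was Cd14, a co-receptor that also binds LPS, at 346, 337 and 403 CPM in Ctrl and 1591, 985 and 1526 CPM with CpGB (3.70-fold, adjusted p 3.9e-18). Unc93b1, the TLR9 transporter, overlapped between the groups at 457, 574 and 614 CPM and 563, 709.7 and 664 CPM. The endosomal protease Ctsl lay just short of the 2-fold limit, at 1454, 1135 and 1239 CPM against 495, 812 and 599 CPM (log2 -0.97 ± 0.15, adjusted p 1.4e-08). It passed that limit without CpGB replicate 2 (log2 -1.11), with library size alone (-1.19) and with RLE factors (-1.07).

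Downstream of the receptor, 7 of 18 tested genes of MyD88 signalling (22 listed) were called higher and none lower by edgeR (median 0.78, with 1 lower at an unadjusted p under 0.05 and none by DESeq2). That gene, Map2k3, a MAP kinase kinase, was at log2 -0.93 and was called lower with RLE factors, with library size alone and without CpGB replicate 3 (log2 -1.03, -1.15 and -1.78). Myd88 itself was at 97.0, 74.8 and 57.6 CPM in Ctrl and 194, 204 and 184 CPM with CpGB, 2.60-fold higher (adjusted p 0.0011), and did not overlap between groups, although the call was lost when all libraries were thinned to 46564 UMIs (log2 0.74, adjusted p 0.27). Irak3, which encodes a brake on IRAK signalling, rose from 2 Ctrl counts to 65 CpGB counts, a ratio of 16.2 (95% counting interval 4.30 to 136). Irf7, an interferon regulatory factor bound by MyD88, rose from 83.1, 199.6 and 115 CPM to 786, 949.7 and 1116 CPM (7.26-fold, adjusted p 1.4e-20). The weaker calls, Chuk, an NF-kB kinase, and Tab2, a kinase adaptor, were lost in some fits with 1 library left out. The ratio of Chuk was 6.47 (95% counting interval 1.62 to 56.2), with an adjusted p of 0.022 that became 0.083 without Ctrl replicate 1 and 0.059 without Ctrl replicate 3. By DESeq2 it was 0.082. The adjusted p of Tab2 was 0.0082 and became 0.17 after thinning, 0.051 without Ctrl replicate 1 and 0.061 without Ctrl replicate 2.

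NF-kB is held inactive by inhibitor proteins that its own activity makes again, and other feedback proteins act on the kinases and cytokine signals around it. Of 24 listed and tested subunits and brakes, 13 were higher and 1 lower, with a median log2 fold change of 1.21 against -0.03 for all genes. Nfkbia, which encodes the inhibitor I-kappa-B-alpha, stood at 332, 474 and 509 CPM in Ctrl and 1262, 1353 and 1508 CPM with CpGB (3.10-fold, adjusted p 1.4e-20). Nfkbiz, a nuclear cofactor needed for genes such as Il6 and Il12b, rose from 55.4, 37.4 and 28.8 CPM to 408, 521 and 576 CPM (12.9-fold). No library of either gene overlapped between the groups. The cytokine signalling inhibitors Socs3 and Socs1 rose 5.69-fold and 5.59-fold, and Zc3h12a, an RNase that degrades cytokine mRNA, 3.82-fold. Tnfaip3, the ubiquitin-editing enzyme A20, was at 208, 262 and 221 CPM and 495, 490.1 and 586 CPM (2.29-fold), a change that fell under 2-fold with library size alone (log2 0.98) and after thinning (log2 0.63, adjusted p 0.1). Of the subunits, Nfkb1 rose 2.46-fold and Nfkb2 2.35-fold (adjusted p of Nfkb2 0.063 after thinning), whereas Rela was at 111, 87.3 and 144 CPM and 165, 123 and 125 CPM with overlapping libraries (log2 0.19, or -0.04 with library size alone). The 1 lower call was Nfkbid, a nuclear I-kappa-B protein, at 180.1, 49.9 and 154 CPM against 48.5, 76.6 and 36.9 CPM. Its groups overlapped, and its adjusted p of 0.02 became 0.077, 0.19, 0.21 and 0.23 without CpGB replicate 1, CpGB replicate 3, Ctrl replicate 1 and Ctrl replicate 3 in turn, 0.15 with no filter and 0.091 after thinning.

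Chemokines, the secreted proteins that attract leukocytes, rose almost throughout. Of 22 listed, 19 were tested, 15 were called higher and none lower by edgeR, with a median of 2.79 (2.29 with genes at 0 in Ctrl set to their lower bound). DESeq2 called none lower either, and 1 was lower at an unadjusted p under 0.05, Ccl6, at 2701, 2307 and 2227 CPM in Ctrl against 1679, 1358 and 1605 CPM (log2 -0.64). The neutrophil attractants Cxcl1, Cxcl2 and Cxcl3 lie together on chromosome 5. Cxcl1 stood at 41.6, 24.9 and 106 CPM in Ctrl and 611, 618 and 687 CPM with CpGB (10.2-fold, adjusted p 7.6e-15), Cxcl2 at 416, 549 and 413 and 4221, 4529 and 4233 CPM (9.46-fold), and Cxcl3 at 402, 274 and 336 and 4153, 4339.8 and 3698 CPM (12.1-fold). In all 3 the CpGB libraries stood well above every Ctrl library. Their promoters are shown because the 3 share 1 word: the 150 bases before each start site (RefSeq, GRCm38.p6, 5′ to 3′ on the gene's strand) each hold GGGAATTTCC, in capitals, a match to the NF-kB word GGGA, any base, TTTCC, beginning 71, 97 and 73 bases before the start of Cxcl1, Cxcl2 and Cxcl3.
Cxcl1, chr5:90891095-90891244, plus strand: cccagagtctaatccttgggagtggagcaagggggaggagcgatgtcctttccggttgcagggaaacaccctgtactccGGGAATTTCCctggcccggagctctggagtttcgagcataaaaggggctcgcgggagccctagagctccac
Cxcl2, chr5:90903749-90903898, plus strand: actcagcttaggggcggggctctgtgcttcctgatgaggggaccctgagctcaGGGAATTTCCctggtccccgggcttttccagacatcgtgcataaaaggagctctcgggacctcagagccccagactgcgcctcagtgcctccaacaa
Cxcl3, chr5:90785951-90786100, plus strand: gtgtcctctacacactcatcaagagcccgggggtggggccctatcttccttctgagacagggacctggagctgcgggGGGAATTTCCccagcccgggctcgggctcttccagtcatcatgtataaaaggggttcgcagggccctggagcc

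Chemokines for other cells rose as well. Ccl3 and Ccl4, which attract monocytes and T cells, stood at 568, 674 and 509 and 789.5, 1159.9 and 864 CPM in Ctrl and at 5667, 6668 and 7359 and 5463, 6372 and 7525 CPM with CpGB (11.4-fold and 6.91-fold). Ccl5, a further T cell attractant, rose from 2133, 2469.5 and 2074 CPM to 11577, 12759 and 16988 CPM (6.21-fold), and Ccl22, which attracts regulatory T cells, from 97.0, 212 and 134 CPM to 989.8, 1174 and 1074 CPM (7.31-fold). All 4 were called with adjusted p-values from 1.8e-44 to 1.1e-25, and in none did a CpGB library reach down to Ctrl. Cxcl5 and Ccl12 had 0 Ctrl counts. Against 3 counts set for Ctrl, with the CpGB count taken as exact, they were at least 5.14-fold and at least 3.32-fold higher. Cxcl10, an interferon-inducible T cell attractant, was at 305, 511 and 336 CPM in Ctrl and 902, 2471 and 1831 CPM with CpGB (4.66-fold), with CpGB replicate 1 the lowest of its group.

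Cytokine genes rose in part. Of 24 listed, 18 were tested, 10 were higher and 1 lower, with a median of 2.49 (2.08 with Il10 at its lower bound). Tnf, the tumour necrosis factor gene, stood at 637, 1135 and 797 CPM in Ctrl and 5473, 6699 and 6109.8 CPM with CpGB (7.12-fold, log2 2.83 ± 0.19, adjusted p 1.4e-32). Il6 rose from 97.0, 99.8 and 182 CPM to 1009, 1195 and 1277 CPM (8.85-fold, adjusted p 1.2e-26) and Il1a from 305, 212 and 134 CPM to 1164, 1644 and 1595 CPM (7.14-fold). Together with Il1b these pro-inflammatory genes were separate from Ctrl in every library. Both chains of interleukin-12, the cytokine that drives type 1 helper T cells, rose from near the detection limit. Il12b, the shared p40 chain, went from 0, 12.5 and 19.2 CPM to 165, 179 and 175 CPM, 3 against 90 counts, a ratio of 14.9 (95% counting interval 4.94 to 73.7) with an adjusted p of 1.8e-04. Il12a, the p35 chain, went from 2 to 68 counts, a ratio of 16.9 (95% counting interval 4.50 to 142). Il23a, whose protein pairs with p40 in interleukin-23, had no count in either group. Il18 rose 6.12-fold, a call lost on thinning (adjusted p 0.071), Ebi3 5.16-fold and Tnfsf15 6.13-fold. Il10, the main anti-inflammatory cytokine, had 0 and 8 counts and was not called (adjusted p 0.075, 1.33-fold higher with Ctrl set to 3 counts). Ifnb1, the interferon-beta gene, had 3 and 10 counts, a ratio of 1.66 (95% counting interval 0.427 to 9.37), and was not called (adjusted p 0.68). The 1 lower call was Vegfa, the endothelial growth factor, at 111, 262 and 154 CPM in Ctrl and 19.4, 51.1 and 18.4 CPM with CpGB (5.56-fold lower).

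Genes of the interferon response, whose products detect or block viruses, rose as a nearly complete set. Of 55 listed, 53 were tested, 50 were called higher and none lower by edgeR, with a median of 2.53 (2.52 with Oas1g at its lower bound). DESeq2 called 48 higher and none lower, and no member was lower at an unadjusted p under 0.05. The 3 without a call were Iigp1 (log2 0.87, adjusted p 0.31), Dtx3l (0.88, 0.0051) and Irgm2 (1.29, 0.07). Dtx3l passed 2-fold without CpGB replicate 1, Ctrl replicate 2 or Ctrl replicate 3 (log2 1.12, 1.02 and 1.07), and Irgm2 was called without CpGB replicate 1 or 3 (adjusted p 0.031 and 0.05). Summed over the 54 members in the table, Ctrl libraries held 5513, 5598 and 6448 CPM from lowest to highest, and CpGB libraries 25628, 33671 and 35219 CPM. The lowest CpGB sum belonged to replicate 1, which was also the shallowest library of its group.

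Ifit1, which binds viral RNA, stood at 249, 212 and 192.03 CPM in Ctrl and 1174, 2027 and 1443 CPM with CpGB (7.29-fold, log2 2.87 ± 0.22, adjusted p 1.2e-26). Isg15, a ubiquitin-like modifier, rose from 139, 225 and 182 CPM to 699, 990.5 and 862 CPM (4.71-fold). Mx1, an antiviral GTPase, rose from 429, 499 and 249.6 CPM to 2018, 3222 and 2707 CPM (7.00-fold), and Gbp2, a guanylate-binding protein, from 125, 262 and 211 CPM to 1494, 1813 and 1858 CPM (8.56-fold). None of these genes overlapped between the groups. Some genes were near 0 in Ctrl: Oas1g was at least 3.15-fold higher, and Ifi44 and Oas2 were higher by ratios of 28.8 (95% counting interval 4.98 to 1159) and 17.7 (95% counting interval 4.71 to 149). Stat2, a transcription factor that carries interferon receptor signals, rose 5.80-fold. The cytosolic RNA sensor gene Ddx58 rose 8.29-fold and the nucleic acid sensor Zbp1 10.9-fold. Members of the Oas, Gbp, Phf11, Ifi200 and Ifit3 families, like the H2, Ccl2 and Clec4a families named elsewhere, have close relatives in the genome. How reads shared between such copies were counted is not given in the sources used here, so their single values are uncertain.

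The upstream bases of Ifit1 and Isg15 are shown with matches to the interferon regulatory factor word GAAA, any 2 bases, GAAA, on either strand, in capitals (same source and window). Ifit1 holds TTTCACTTTC and TTTCAGTTTC, the word read on the other strand, beginning 104 and 85 bases before its start. Isg15 holds 3 matches that overlap, beginning 78, 72 and 66 bases before its start.
Ifit1, chr19:34640739-34640888, plus strand: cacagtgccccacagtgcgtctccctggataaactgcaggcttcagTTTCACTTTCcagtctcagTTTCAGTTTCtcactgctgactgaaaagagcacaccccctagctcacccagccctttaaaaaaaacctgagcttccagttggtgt
Isg15, chr4:156200819-156200968, minus strand: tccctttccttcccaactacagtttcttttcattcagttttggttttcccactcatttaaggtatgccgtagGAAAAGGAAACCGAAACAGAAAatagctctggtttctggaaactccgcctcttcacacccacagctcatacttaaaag

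Such words were counted in windows of 300 bases around RefSeq start sites (250 before, 50 after) of called genes, on both strands. The interferon regulatory factor word was in 66 of 549 windows of the genes called higher (12.0%), in 3.40% of those of genes called lower, in 3.17% of those tested but not called and in 3.44% of all promoters in the table. The NF-kB word was in 9 of 549 windows of the higher genes (1.64%) and in none of the 353 windows of the lower genes, against 0.569% for genes not called and 0.411% of all promoters. The AP-1 word TGANTCA was in 10.2% of windows of the higher and 6.23% of the lower genes, against 5.00% for genes not called and 7.81% of all promoters. Windows were found for 424 of the 508 higher genes, 242 of the 296 lower and 3158 of the 3916 not called. A match is only a run of letters and shows neither binding nor a cause, and these shares were not tested.

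Transcription factors of the AP-1, C/EBP, STAT and interferon regulatory families moved both ways. Of 24 listed and tested, 7 were higher and 4 lower, against 10.8% and 6.27% over all genes (median 0.73). Beside Irf7 and Stat2, the rises included Batf and Batf2, AP-1 family members (5.96-fold and 4.16-fold), Cebpd (4.68-fold) and Irf9, a DNA-binding partner of STAT2 (2.30-fold), whose adjusted p of 0.013 became 0.076 without CpGB replicate 3, 0.052 by DESeq2, 0.054 with library size alone and 0.34 after thinning (log2 0.69). Of the falls, 3 were genes of the AP-1 family. Fos stood at 111, 112 and 106 CPM in Ctrl and 9.70, 40.8 and 27.7 CPM with CpGB (3.72-fold lower, adjusted p 0.001). Jun stood at 55.4, 62.4 and 76.8 CPM against 38.8, 5.11 and 13.8 CPM, and Batf3, a factor of type 1 conventional dendritic cells, at 97.0, 74.8 and 57.6 CPM against 38.8, 10.2 and 13.8 CPM. Junb, another gene of that family, lay the other way and just under the limit, at 263, 225 and 249.6 CPM against 475, 500.4 and 479.6 CPM (log2 0.98 ± 0.22, adjusted p 2.1e-04). It was called higher with no filter (log2 1.18) and when any 1 of the 6 libraries was left out (log2 1.04 to 1.13). Cebpb (log2 0.81, adjusted p 5.4e-04) was called higher with no filter and without Ctrl replicate 2 or 3 (log2 1.01, 1.10 and 1.02). Groups did not overlap for Fos, Jun and Batf3, but the calls of Jun and Batf3 were lost in some fits with 1 library left out. The adjusted p of Jun, 0.013, became 0.14, 0.067 and 0.11 without CpGB replicate 2, CpGB replicate 3 and Ctrl replicate 3, and that of Batf3, 0.012, became 0.099, 0.08 and 0.083 without CpGB replicate 2, CpGB replicate 3 and Ctrl replicate 1. With no filter they became 0.066 and 0.06.

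Genes of dendritic cell maturation rose in part. Of 20 listed, 13 were tested, 8 were called higher and none lower by edgeR (median 1.74, or 1.58 with Icosl at its lower bound, and none was lower at an unadjusted p under 0.05 or by DESeq2). Cd40, the receptor through which T cells license dendritic cells, stood at 69.3, 112 and 115 CPM in Ctrl and 650.2, 914 and 687 CPM with CpGB (7.46-fold, adjusted p 7.2e-20). Icosl, the ligand of ICOS, had 0 and 18 counts and was at least 2.98-fold higher, Slamf7 rose 5.92-fold and Marcksl1 4.30-fold. Cd274, which encodes the inhibitory ligand PD-L1, rose 3.89-fold, and Fscn1, the actin-bundling protein of mature dendritic cells, 4.04-fold. Cd86, a ligand of CD28, was not called, at 27.7, 49.9 and 28.8 CPM and 29.1, 66.4 and 119.9 CPM with overlapping groups (adjusted p 0.13), but was called without CpGB replicate 1 (log2 1.54, adjusted p 0.033). Ccr7, the receptor for migration to lymph nodes, lay at the 2-fold limit, at 139, 199.6 and 249.6 CPM and 456, 398 and 369 CPM (log2 0.99 ± 0.23, adjusted p 3.2e-04). It passed the limit when CpGB replicate 1, 2 or 3 or Ctrl replicate 2 or 3 was left out (log2 1.06, 1.07, 1.11, 1.09 and 1.33).

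Antigen presentation genes were tested for both MHC classes. For MHC class I, which presents peptides made inside the cell, 10 of 18 tested genes (22 listed) were called higher and none lower by edgeR (median 1.15), nor was any lower by DESeq2 or at an unadjusted p under 0.05. The peptide transporter Tap1 stood at 55.4, 37.4 and 76.8 CPM in Ctrl and 329.9, 403 and 410.4 CPM with CpGB (6.58-fold), the proteasome activator Psme2 at 208, 199.6 and 192.03 CPM and 1029, 939 and 968 CPM (4.88-fold), and the class I transactivator Nlrc5 and the immunoproteasome subunit Psmb8 rose 4.59-fold and 3.08-fold. The class I heavy chain H2-K1 and B2m, its light chain, were higher by less than 2-fold (log2 0.78 and 0.81, adjusted p 5.7e-08 and 9.3e-11), and B2m passed 2-fold without CpGB replicate 1 (log2 1.02). For MHC class II, which presents peptides taken up from outside, 1 of 8 tested genes (13 listed) was higher and 1 lower, near the 10.8% and 6.27% over all genes (median 0.19). H2-Ab1, a class II beta chain, overlapped between the groups at 1718, 1522 and 1335 CPM and 1853, 1654 and 1734 CPM (log2 0.20 ± 0.11), and its sign turned with library size alone (log2 -0.02). The higher gene was March1, a ubiquitin ligase that removes class II proteins from the surface (55.4, 37.4 and 9.60 CPM against 116, 168 and 152 CPM, 4.71-fold), which lost its call on thinning (adjusted p 0.14). The lower gene was Ifi30, a lysosomal thiol reductase (277, 199.6 and 269 CPM against 116, 81.7 and 138 CPM, 2.21-fold lower), which missed the call without CpGB replicate 2, Ctrl replicate 1 or Ctrl replicate 3 (log2 -0.85, -0.99 and -0.97), with no filter (-0.95) and after thinning (-0.83).

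Metabolic genes were followed in lists of arginine, nitric oxide and itaconate and of glycolysis. Irg1, which makes itaconate from a Krebs cycle intermediate, stood at 402, 474 and 365 CPM in Ctrl and 2397, 2829 and 2564 CPM with CpGB (6.34-fold, adjusted p 2.4e-41). Slc7a2, an arginine transporter, rose 6.42-fold, mitochondrial superoxide dismutase Sod2 5.63-fold and Gch1, which makes the cofactor of nitric oxide synthase, 5.09-fold. In all, 6 of 15 tested genes of arginine, nitric oxide and itaconate (19 listed) were called higher and none lower by edgeR (median 0.88), with none lower by DESeq2 or at an unadjusted p under 0.05. Nos2, the inducible nitric oxide synthase, had 1 and 7 counts (ratio 3.48, 95% counting interval 0.447 to 157, not called). Of 20 listed and tested genes of glycolysis and hypoxia, edgeR called none (median -0.08), and 3 were higher and 3 lower at an unadjusted p under 0.05. Several lay so near the limits that other settings called them. Gpi1, an isomerase of glycolysis, and Slc2a1, a glucose transporter, were lower by just under 2-fold (log2 -0.996 and -0.98, adjusted p 0.0073 and 0.012), and both were called lower with RLE factors, with library size alone, with the 6 libraries fitted alone and by DESeq2, Gpi1 also after thinning (log2 -1.40) and without Ctrl replicate 1 (-1.08) and Slc2a1 without CpGB replicate 3 (-1.21). Pfkfb3, which makes an activator of glycolysis, was at log2 0.95 and was called higher with no filter and without CpGB replicate 1, CpGB replicate 3 or Ctrl replicate 1 (1.15, 1.11, 1.12 and 1.28). Pfkp, a phosphofructokinase (log2 1.18, adjusted p 0.07), was called higher with no filter and without CpGB replicate 1 or Ctrl replicate 3 (adjusted p 0.041, 0.019 and 0.026), and the hexokinase gene Hk2 (log2 0.81) without CpGB replicate 1 or 2 (1.00 and 1.04).

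Lipid mediator genes moved both ways. Of 14 listed genes of prostaglandins and leukotrienes, 8 were tested, 3 higher and 3 lower, against 10.8% and 6.27% over all genes (median -0.58). Ptgs2, the inducible cyclooxygenase, stood at 13.9, 24.9 and 19.2 CPM in Ctrl and 184, 209 and 346 CPM with CpGB (12.8-fold, adjusted p 2.4e-09), and Ptges, which makes prostaglandin E2, at 13.9, 12.5 and 28.8 CPM and 97.0, 81.7 and 92.2 CPM (4.46-fold). Pla2g4a, the phospholipase that frees arachidonic acid, had 2 and 26 counts, a ratio of 6.47 (95% counting interval 1.62 to 56.2) with an adjusted p of 0.0072 (0.072 by DESeq2). Ptgs1, the constitutive cyclooxygenase, moved the other way, from 208, 199.6 and 86.4 CPM to 19.4, 40.8 and 0 CPM (7.89-fold lower), as did thromboxane synthase Tbxas1, from 457, 337 and 298 CPM to 67.9, 123 and 111 CPM (3.37-fold lower). Alox5ap, the leukotriene pathway activator, was 2.23-fold lower, but missed the call without CpGB replicate 1 or Ctrl replicate 1 (log2 -0.99 and -0.69) and with no filter (-0.95). Of 21 listed genes of cholesterol and sterols, 16 were tested, 4 called higher and none lower by edgeR, against 10.8% and 6.27% over all genes (median 0.72, with 2 lower at an unadjusted p under 0.05 and none by DESeq2). Only 2 of 16 were higher by DESeq2, with library size alone and without CpGB replicate 2 or Ctrl replicate 3. After thinning 1 of 10 tested was higher and 1 lower, the lower being the cholesterol exporter gene Abca1 (log2 -1.41, against -0.57). Ch25h, which makes the antiviral 25-hydroxycholesterol, had 2 and 58 counts, a ratio of 14.4 (95% counting interval 3.82 to 122), and the liver X receptor gene Nr1h3 rose 3.47-fold, a call lost on thinning (adjusted p 0.089). The sterol synthesis genes Fdps and Idi1 were 2.39-fold and 2.15-fold higher with adjusted p-values of 0.016 and 0.04. Fdps had an adjusted p of 0.097, 0.075 and 0.063 without CpGB replicate 2, Ctrl replicate 1 and Ctrl replicate 3, and Idi1 one of 0.13, 0.062 and 0.16 without CpGB replicate 2, Ctrl replicate 2 and Ctrl replicate 3. Both calls were also lost by DESeq2 (adjusted p 0.058 and 0.12), with library size alone (0.055 and 0.11) and after thinning, where the log2 fold changes were 0.16 and 0.38 (adjusted p 0.89 and 0.68), and that of Idi1 with RLE factors (0.066) and with no filter (0.052).

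Surface receptors also went both ways. Of 24 listed lectin, scavenger and Fc receptors, 21 were tested, 6 higher and 4 lower, against 10.8% and 6.27% over all genes (median 0.24). Marco, a scavenger receptor for bacteria, rose from 360.1, 324 and 326 CPM to 4901, 4339.8 and 3499.9 CPM (12.6-fold, adjusted p 9.3e-34), and Clec4e, the mycobacterial glycolipid receptor Mincle, from 346, 461 and 346 CPM to 2309.6, 2344 and 2642 CPM (6.36-fold). Fcgr1, the high-affinity receptor for IgG, rose 4.12-fold. The 4 lower genes were Cd300a, an inhibitory receptor (263, 249 and 278 CPM in Ctrl, 19.4, 51.1 and 32.3 CPM with CpGB, 7.10-fold lower), the mannose receptor Mrc1 (3.07-fold lower), the beta-glucan receptor Clec7a (1122, 910.5 and 893 CPM against 349, 291 and 503 CPM, 2.49-fold lower) and Fcgr3. The groups stood apart for all 4, but Fcgr3, 2.03-fold lower, fell short of 2-fold without CpGB replicate 1, CpGB replicate 2, Ctrl replicate 2 or Ctrl replicate 3 (log2 -0.82, -0.98, -0.85 and -0.80) and with no filter (-0.82). Of 15 listed receptors for chemoattractants, 10 were tested, 3 higher and 3 lower, against 10.8% and 6.27% over all genes (median 0.29). The formyl peptide receptors Fpr1 and Fpr2 rose from 125, 149.7 and 67.2 and 111, 125 and 106 CPM to 718, 771 and 659 and 679, 807 and 761 CPM (6.49-fold and 6.65-fold) and Ccrl2 4.34-fold. Ccr2, the receptor by which monocytes follow CCL2, fell from 208, 125 and 182 CPM to 38.8, 20.4 and 64.6 CPM (3.99-fold lower, adjusted p 2.7e-04). Ccr1 and the complement receptor C5ar1 were 2.07-fold and 2.08-fold lower, near the limit. Without CpGB replicate 1, CpGB replicate 2, Ctrl replicate 2 and Ctrl replicate 3 the log2 fold change of Ccr1 was -0.68, -0.96, -0.92 and -0.77, and without CpGB replicate 1, CpGB replicate 3, Ctrl replicate 1 and Ctrl replicate 3 that of C5ar1 was -0.91, -0.92, -0.84 and -0.99. With no filter both also fell short (log2 -0.85 and -0.86).

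For inflammasome and survival genes, 7 of 17 tested (22 listed) were called higher and none lower by edgeR (median 0.89, with 2 lower at an unadjusted p under 0.05 and none by DESeq2). With library size alone Pycard, the inflammasome adaptor, and Bcl2l11, which promotes cell death, were called lower (log2 -1.11 and -1.29). Nlrp3, the sensor whose inflammasome releases interleukin-1 beta, stood at 27.7, 87.3 and 28.8 CPM in Ctrl and 155, 276 and 235 CPM with CpGB (4.89-fold), and the inflammatory caspase Casp4 at 83.1, 12.5 and 28.8 CPM and 136, 158 and 244 CPM (4.74-fold). The stress gene Gadd45b rose 5.39-fold. Of 20 listed genes of growth factor receptors and myeloid identity, 14 were tested, 1 higher and 1 lower, near the 10.8% and 6.27% over all genes (median -0.11). The higher gene was Id2 (2.18-fold, or log2 0.90 with library size alone). Csf1r, the receptor of macrophages for CSF1, was not called but was lower in every CpGB library, at 1621, 1759 and 1776 CPM against 883, 1093 and 945 CPM (log2 -0.81 ± 0.14, adjusted p 1.1e-06), short of 2-fold in this fit and past it with library size alone (log2 -1.03). Of 24 listed cell cycle genes only 6 had counts enough to be tested, and Pcna, the replication clamp, fell from 388, 387 and 547 CPM to 116, 133 and 194 CPM (2.91-fold lower).

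**Figure D2:**
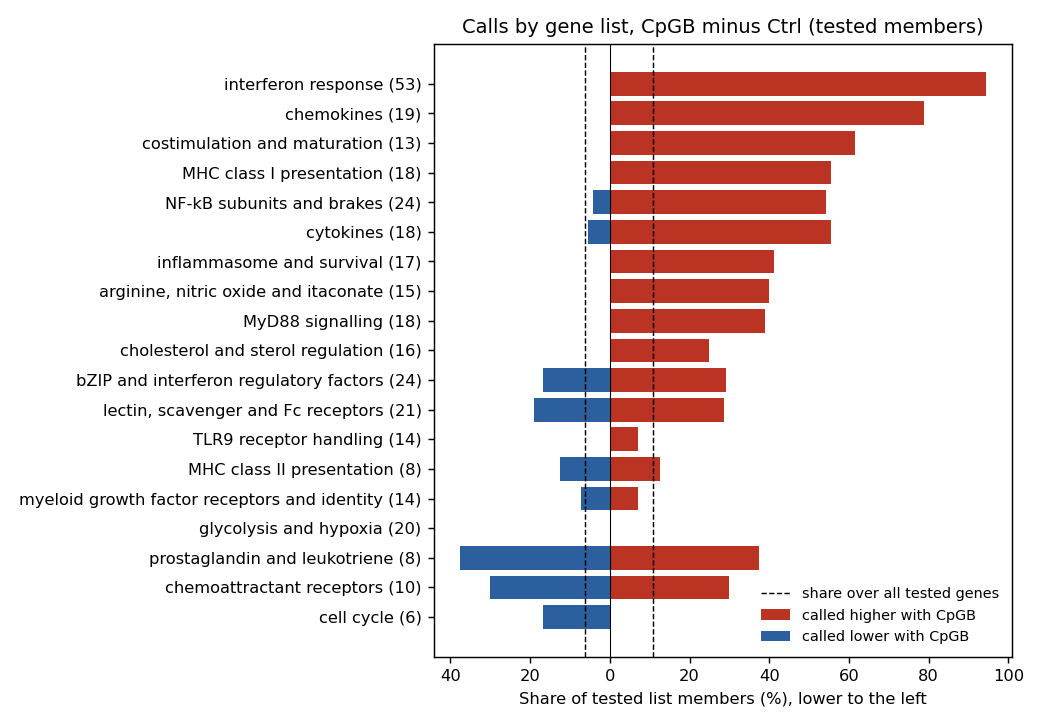
Share of the tested members of each of 19 gene lists called higher (red, to the right) or lower (blue, to the left) in CpGB against Ctrl, with the number tested in parentheses and dashed lines at the shares over all tested genes (10.8% and 6.27%). The interferon response list stands highest with 50 of 53 members called higher, and the glycolysis list has no call in this fit.

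CpGB was next set directly against LPS and against PAM, without use of the Ctrl libraries. Against LPS, 61 of 4720 genes were higher with CpGB (1.29%) and 135 lower (2.86%), and against PAM 221 were higher (4.68%) and 55 lower (1.17%). These counts varied when 1 library was left out, with the filter and scaling redone: 61 became 38 without CpGB replicate 3 and 34 without LPS replicate 3, 135 became 89 without CpGB replicate 1, and 55 became 25, 30, 29, 27 and 30 without CpGB replicate 2, CpGB replicate 3, PAM replicate 1, PAM replicate 2 and PAM replicate 3. Thinning gave 32 and 48 against LPS and 112 and 21 against PAM, and DESeq2 called 25 lower than with PAM. Libraries did not overlap for 10.3% of tested genes higher and 14.0% lower than with LPS, and for 12.0% higher and 11.6% lower than with PAM. Of the interferon-response genes, 15 of 53 were called lower than with LPS and none higher by edgeR (median -0.77), while 49 of 53 were higher than with PAM and none lower (median 1.84, against medians of -0.02 and -0.06 over all genes). At an unadjusted p under 0.05, 45 were lower and none higher than with LPS, and 51 were higher and none lower than with PAM. DESeq2 called 14 lower and none higher than with LPS, and 49 higher and none lower than with PAM. Summed over the list, libraries held 65372 to 71126 CPM with LPS, 25628 to 35219 CPM with CpGB, 9638 to 10012 CPM with PAM and 5513 to 6448 CPM in Ctrl, with no overlap between these groups, so that CpGB lay between PAM and LPS. Ifit1 stood at 3528, 3935 and 3991 CPM with LPS and 295, 382 and 356 CPM with PAM, so that CpGB was 2.43-fold lower and 4.53-fold higher. Cxcl10 stood at 6774, 7493 and 7647 CPM with LPS and 486, 598 and 589 CPM with PAM, 4.09-fold above and 3.19-fold below the level with CpGB. Irf7 was 3.92-fold higher than with PAM (adjusted p 1.7e-17) and 1.65-fold lower than with LPS (adjusted p 2.9e-04), the latter short of the 2-fold limit.

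The neutrophil attractants followed the opposite order. Cxcl1 stood at 1699, 1629 and 1845 CPM with PAM, 611, 618 and 687 CPM with CpGB and 112, 127 and 129.8 CPM with LPS, so CpGB was 2.68-fold below PAM (adjusted p 5.4e-11) and 5.15-fold above LPS (adjusted p 5.8e-14). Cxcl2 was 3.71-fold and Cxcl3 3.29-fold above LPS, and they were 2.05-fold and 2.68-fold below PAM. The order was the same for the 3 genes and no libraries overlapped, although Cxcl2 against PAM lay at the 2-fold limit and missed it by DESeq2, with RLE factors, with only the 6 libraries and without CpGB replicate 1 or 3 or PAM replicate 1 or 3 (log2 -0.92, -0.99, -0.90 and -0.94). Cxcl5 had 31 counts with CpGB and 1 with LPS (ratio 32.4, 95% counting interval 5.39 to 1319). Nfkbiz was 2.92-fold and Marco 2.90-fold above LPS, and Nfkbiz was also above PAM, by less than 2-fold (log2 0.65, adjusted p 0.0058), and past 2-fold after thinning (log2 1.11, adjusted p 0.0046). Other inflammatory genes differed less: Tnf stood at 7565, 8114 and 8617 CPM with PAM and 4437, 4373 and 4506 CPM with LPS (CpGB against them -0.41 and 0.46 log2, neither called), and Il1b at 7926, 7757 and 8706 CPM and 3432, 3636 and 3477 CPM (-0.55 and 0.66 log2, adjusted p 8.0e-05 and 4.0e-06, both short of 2-fold). Il6 overlapped with both, at 1463, 1207 and 1339 CPM with PAM and 1369.7, 1086 and 1342 CPM with LPS (log2 -0.18 ± 0.15 and -0.11 ± 0.15), and without CpGB replicate 1 its difference from LPS changed sign (log2 0.01).

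Of the called genes whose CPM reached 100 on average with CpGB or the other ligand, the 5 highest against LPS were Cxcl1, Cxcl2, the lectin receptors Clec4a2 (4.77-fold) and Clec4a1 (4.12-fold), and Kctd12 (3.46-fold). The 5 lowest were the interferon-inducible chemokine Cxcl11 (19.4, 15.3 and 9.22 CPM with CpGB and 149, 161 and 157 CPM with LPS, 10.9-fold lower), Serpina3f (5.93-fold), Hopx (5.92-fold), the GTPase Iigp1 (5.53-fold) and Fam26f (4.95-fold). Cd40 and Cd86 were 2.03-fold and 3.31-fold lower than with LPS, Cd40 missing the limit without CpGB replicate 1 or 3 (log2 -0.91 and -0.98), by DESeq2, after thinning, with RLE factors, with library size alone and with only the 6 libraries (log2 -0.98, -0.96, -0.97, -0.94 and -0.96). Against PAM, the 5 highest by the same limit were Fcgr1 (213, 214 and 327 CPM with CpGB and 13.1, 20.1 and 33.3 CPM with PAM, 11.1-fold), Gm14446 (7.77-fold), the RNase Isg20 (7.05-fold), cyclin Ccnd2 (7.02-fold) and Ms4a4c (6.87-fold). The 5 lowest were Rab11fip1 (3.72-fold), Cav2 (3.54-fold), U90926 (3.44-fold), the calcium channel gene Orai2 (2.96-fold) and the signalling adaptor Traf5 (2.90-fold), with Traf5 no longer called without CpGB replicate 3 (adjusted p 0.091) or after thinning (0.47).

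Il12b was 1 of 6 genes called above both ligands (0.127% of those tested), in comparisons that share the 3 CpGB libraries. It stood at 165, 179 and 175 CPM with CpGB, 74.4, 44.3 and 62.6 CPM with LPS and 32.8, 25.1 and 27.8 CPM with PAM, 2.90-fold and 6.03-fold above them, and no library overlapped. Its adjusted p against LPS, 0.025, became 0.081, 0.079, 0.13 and 0.093 without CpGB replicate 2, CpGB replicate 3, LPS replicate 2 and LPS replicate 3, 0.058 by DESeq2 and 0.25 after thinning (log2 1.28), while that against PAM was 2.2e-04. The other 5, named after their values were seen, were Cd300e, an activating receptor of monocytes, Clec4a1, Clec4a3, Kctd12 and 5430435G22Rik. Of these, Clec4a3 was called above PAM (2.97-fold, adjusted p 0.0014) and above LPS (2.85-fold, adjusted p 0.0028, or 0.083 without LPS replicate 3). Against Ctrl the 5 did not move alike: Cd300e and Clec4a1 were called higher, 5430435G22Rik was called lower (346, 387 and 394 CPM in Ctrl, 67.9, 138 and 138 CPM with CpGB), and Clec4a3 and Kctd12 were not called (log2 0.47 and -0.79). Kctd12 was called lower than Ctrl with library size alone (log2 -1.01, adjusted p 0.0090) and after thinning (log2 -1.22, adjusted p 0.027). Each of these 5 lost a call against LPS or PAM when 1 library was left out. Calls were also lost by DESeq2 for Cd300e and Kctd12 against PAM (adjusted p 0.09 and 0.061) and Cd300e against Ctrl (0.065), and after thinning for Kctd12 against LPS and PAM (0.48 and 0.34) and 5430435G22Rik against both (0.65 and 0.36). With no filter they were lost for 5430435G22Rik against both (0.11 and 0.086) and Kctd12 against PAM (0.056), the latter also with library size alone (log2 0.98). Against PAM, the adjusted p of Cd300e became 0.091 and 0.092 without CpGB replicate 3 and PAM replicate 2, that of Clec4a1 0.21, 0.055 and 0.093 without CpGB replicate 2, PAM replicate 1 and PAM replicate 3, and that of Kctd12 0.098, 0.082, 0.12 and 0.064 without CpGB replicate 1, CpGB replicate 2, PAM replicate 2 and PAM replicate 3. That of 5430435G22Rik became 0.13, 0.18, 0.1 and 0.11 against PAM without CpGB replicate 2, CpGB replicate 3, PAM replicate 1 and PAM replicate 3. Against LPS it became 0.17, 0.19, 0.32 and 0.063 without CpGB replicate 2, CpGB replicate 3, LPS replicate 1 and LPS replicate 3. The call of Clec4a1 against Ctrl was lost without CpGB replicate 2 (adjusted p 0.051), and that of Cd300e without Ctrl replicate 3 (0.08). U90926 was the 1 gene called below both (0.0212%, against LPS its adjusted p was 0.19 after thinning), at 87.3, 30.6 and 36.9 CPM with CpGB, 96.8, 144 and 161 CPM with LPS and 197, 161 and 117 CPM with PAM.

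**Figure D3:**
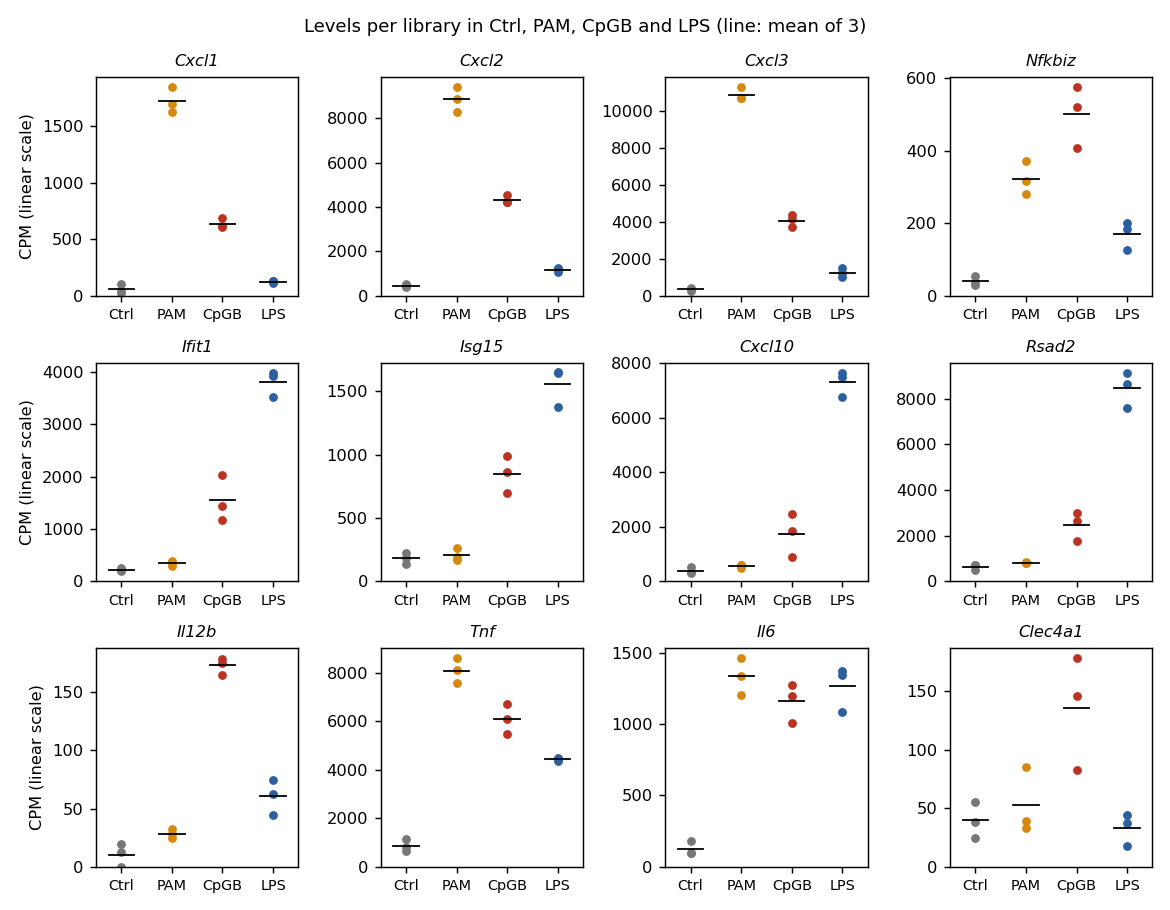
CPM of 12 genes in each library of Ctrl, PAM, CpGB and LPS on linear axes from 0, with lines at the means of 3. For Cxcl1, Cxcl2 and Cxcl3 CpGB lay between LPS below and PAM above, for Ifit1, Isg15, Cxcl10 and Rsad2 between PAM below and LPS above, and for Il12b and Nfkbiz above both, Nfkbiz by under 2-fold from PAM in the main fit.

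A second estimate of what CpGB does came from libraries that the comparison with Ctrl does not use, HMW with CpGB against HMW alone. There 370 genes were called higher (7.84%) and 276 lower (5.85%), or 193 and 81 after thinning, and libraries did not overlap for 16.8% higher and 16.3% lower. Of the 508 genes that CpGB raised against Ctrl, 291 were also called higher (57.3% of the 508 and 78.6% of the 370), 489 had the same sign (96.3%, where 44.5% of the genes not called against Ctrl lay above 0) and 1, Chuk, was called the opposite way (log2 -1.23, adjusted p 0.045). That call was lost by DESeq2 (adjusted p 0.069), with no filter (0.15) and when any 1 of these 6 libraries was left out, with adjusted p-values of 0.087, 0.084 and 0.2 without HMW+CpGB replicates 1, 2 and 3 and 0.14, 0.19 and 0.053 without HMW replicates 1, 2 and 3. The raised genes' median log2 fold change was 2.00 against Ctrl and 1.20 against HMW. Of the 296 lower genes, 151 were also called lower (51.0% of the 296 and 54.7% of the 276), 281 had the same sign (94.9%, where 55.4% of the genes not called lay below 0) and none was called higher by edgeR or DESeq2 or higher at an unadjusted p under 0.05, with medians of -1.76 and -1.17. Since the estimate against Ctrl chose these genes, their medians there lie farther from 0 by the choice itself, and no difference is read from these medians. Across the 4720 tested genes Pearson's r between both estimates was 0.69, given as a description, since genes are not independent.

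Of 18 tested cytokine genes, 12 were called higher and 1 lower beside HMW, and 10 and 1 beside Ctrl (medians 2.03 and 2.49). Of 19 tested chemokine genes, 12 and 15 were called higher (medians 1.64 and 2.79). Over all tested genes 7.84% were higher beside HMW and 10.8% beside Ctrl. Tnf stood at 989.5, 1063 and 902 CPM with HMW and 5788, 6466 and 6240.3 CPM with HMW and CpGB (log2 2.65 ± 0.17, against 2.83 ± 0.19 beside Ctrl), Il6 gave 3.29 (against 3.15), Il1b 3.76 (against 4.16) and Saa3 4.26 (against 4.23). Il12b went from 8.32, 4.48 and 18.6 CPM to 240.5, 188 and 119.6 CPM (15.8-fold), and Cxcl1, Cxcl2 and Cxcl3 rose 16.9-fold, 8.30-fold and 12.7-fold (against 10.2-fold, 9.46-fold and 12.1-fold beside Ctrl). Cd40, Marco, Nfkbia and Myd88 were called again (9.89-fold, 9.91-fold, 2.65-fold and 2.32-fold). Of the interferon-response genes, 33 of 53 were called higher and none lower by edgeR (50 and none at an unadjusted p under 0.05, 32 and none by DESeq2), with a median of 1.18 against 2.53 beside Ctrl. The difference of both effects was itself past an adjusted p of 0.05 for 23 of 53, smaller with HMW in each, against 1.06% of all tested genes. Ifit1 went from 416, 677 and 349 CPM to 1306, 1972 and 1549.7 CPM (log2 1.73) and Irf7 from 399, 421 and 181 CPM to 585, 829 and 823 CPM (log2 1.20, or 0.93 without HMW replicate 3 and 0.98 after thinning). The summed list stood at 9527 to 16107 CPM with HMW, above the 5513 to 6448 CPM of Ctrl, and at 25372 to 33829 CPM with HMW and CpGB, a range that overlaps that of CpGB alone.

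Of the 10 largest rises against Ctrl, 8 were called higher in these libraries. The other 2 missed the 2-fold limit: Papd7 was at 49.9, 71.7 and 46.5 CPM with HMW and 87.5, 147 and 82.8 CPM with both (log2 0.93), and Igtp at 166, 126 and 74.4 CPM and 153, 246 and 244 CPM (log2 0.92). Papd7 passed it without HMW+CpGB replicate 1 or 3 or HMW replicate 2 (log2 1.11, 1.13 and 1.25), and Igtp without HMW+CpGB replicate 1, HMW replicate 1 or HMW replicate 2 (1.15, 1.17 and 1.07). Slco3a1, with more counts here, was 7.29-fold higher, Ccl17 6.80-fold and Lad1 10.9-fold. Of the 10 largest falls, 8 were called lower. Daglb went from 149.7, 143 and 158 CPM to 5.47, 17.1 and 23.0 CPM (9.14-fold lower). Hs6st1 and Arrb1 were not called (log2 -1.33 and -0.86, adjusted p 0.18 and 0.29), and Hip1, called at an adjusted p of 0.0072, lost the call without HMW+CpGB replicate 3 (0.056). Gm14446 lost its call without HMW+CpGB replicate 2 or HMW replicate 3 (adjusted p 0.21 and 0.088) and after thinning (0.11), as did Ccl17 after thinning (0.064).

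**Figure D4:**
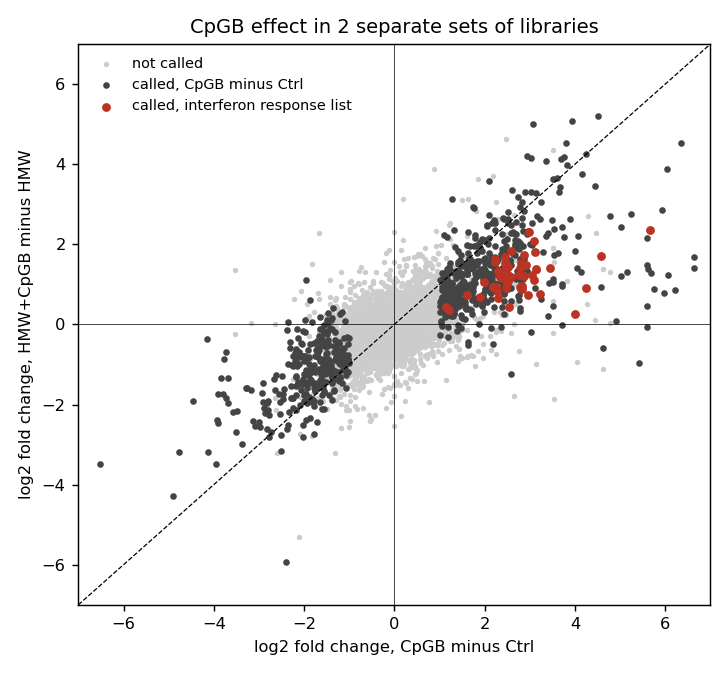
Log2 fold change of each of the 4720 tested genes for CpGB against Ctrl (horizontal) and for HMW with CpGB against HMW (vertical), in libraries that do not overlap, with a dashed line where both are equal. Of the 508 genes called higher against Ctrl, 489 lie above 0 on the vertical axis (96.3%, against 44.5% of genes not called). Of the 53 tested genes of the interferon response list (red where called against Ctrl), 52 lie below the dashed line.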

How the data were processed

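The deposited table holds whole-number UMI counts per gene symbol, and per the submitters' processing notes BWA 0.7.15 and the build mm10 were used. The annotation, the collapsing of UMIs and the treatment of reads that fit several genes are not given in the sources used here. Per the labels' protocols, cells were stimulated for 6 hours, reverse transcribed with template switching, pooled and sequenced on a NextSeq 550. Samples were grouped by their titles, and every column was matched to a sample by name. Counts were fitted with edgeR 4.0.16 in R 4.3.3, with 1 coefficient for each of 64 groups, so that all groups share the estimate of spread (128 residual degrees of freedom). The filter filterByExpr kept 4720 of 23481 genes, which hold 95.7% of UMIs, and TMM factors scaled the libraries. The quasi-likelihood F-test gave p-values, which were adjusted within each comparison over its tested genes (Benjamini-Hochberg), and a call needed an adjusted p under 0.05 and a log2 fold change of at least 1. Each ± after a log2 fold change is its standard error, taken from the test.

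Where a group held 0 counts of a gene, the fold change is a lower bound against 3 counts over the group, and with 1 to 3 counts it is the ratio of the groups' counts with an exact 95% interval. The bound takes the other group's count as exact, so it is no 95% limit. With few counts, as for Il10, no rise is read from it. The intervals cover counting error only. Genes named are a fixed list, the 10 largest rises and falls with at least 100 CPM and no overlap, up to 4 called members of each of 19 gene lists, and the 5 called highest and 5 lowest against LPS and against PAM with at least 100 CPM in either group. All others named were chosen after their values were seen, and some genes that these rules pick are not reported here. The members and lists were chosen with earlier results of these data known, and lists share genes (Irf7 stands in more than 1). On simulated counts for CpGB against Ctrl over 4720 genes, 76% of 50 genes set 1.5 higher on the log2 scale and 38% of 50 set 1.5 lower were recovered, 100% and 80% at 3, and 4 unchanged genes were called. Every simulated gene had the same spread beyond counting error (10.25%), and genes lowest in Ctrl were not among those changed. Recovery for genes with larger spread or near the floor was therefore not tested. Alternatives were RLE factors, library size alone, DESeq2 1.42.0, no filter, thinning, only the libraries compared, a replicate block, leaving out each library and no fold threshold. Promoter windows came from a RefSeq table of GRCm38.p6.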

Additional observations from a re-analysis of the deposited data

Results flagged for a closer look

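For 4 of the genes named by rule, the effect of CpGB differed between HMW libraries and libraries without HMW, by a test of the difference itself (edgeR's quasi-likelihood test, adjusted over 4720 genes, past which 1.06% came). The difference, taken as the effect with HMW minus the effect without, was -1.14 ± 0.29 on the log2 scale for Ifit1 (adjusted p 0.017) and -1.66 ± 0.34 for Irf7 (adjusted p 0.00075). It was -3.32 ± 0.61 for Igtp (adjusted p 5.6e-05) and -3.63 ± 0.92 for Papd7, which had 1 Ctrl count (adjusted p 0.016). Igtp and Papd7 were named for their large rise against Ctrl, the estimate that is subtracted here, so their difference leans negative by that choice and is no independent test. Over all tested genes 49 differences were negative and 1 positive. Of the interferon response list 23 of 53 were negative and none positive, and in the cytokine and chemokine lists none passed. HMW alone already stood above Ctrl in the summed interferon list, at 9527 to 16107 against 5513 to 6448 CPM, and the part of that starting level in the smaller effect was not tested.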

How the results depend on the processing

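CpGB against Ctrl gave 508 genes higher and 296 lower. Thinned libraries gave 308 and 126, and the 6 libraries fitted alone 308 and 151, with only 1852 and 1585 genes left to test. With no filter 187 were lower (14862 genes tested), and with library size alone 392 were higher and 491 lower. Leaving out 1 library gave 471 to 575 higher and 209 to 243 lower. Those fits redid the filter and scaling and tested 4959 to 5031 genes. Their median log2 fold changes were 0.0012 to 0.082, against -0.026 in the main fit. The part of the library itself in these shifts was not tested.

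Against LPS (61 higher, 135 lower), thinning gave 32 and 48, and no fold threshold 121 and 262. Leaving out 1 library gave 34 to 54 higher, with 38 without CpGB replicate 3 and 34 without LPS replicate 3, and 89 to 144 lower, with 89 without CpGB replicate 1. Against PAM (221 higher, 55 lower), thinning gave 112 and 21, DESeq2 25 lower, no filter 34 lower and no fold threshold 118 lower. Leaving out 1 library gave 179 to 253 higher and 25 to 43 lower, with 25, 30, 29, 27 and 30 lower without CpGB replicate 2, CpGB replicate 3, PAM replicate 1, PAM replicate 2 and PAM replicate 3. For HMW with CpGB against HMW (370 higher, 276 lower), thinning gave 193 and 81, no fold threshold 422 lower, and leaving out 1 library 331 to 410 higher and 199 to 236 lower. The number of tested genes changed too, from 4720 to 1852 after thinning, 14862 with no filter and 5005 to 5031 with 1 library left out. The part of this in these shifts, and any other cause, was not tested.

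Signs turned for H2-Ab1 (-0.0185) and Rela (-0.0359) against Ctrl with library size alone, and for Il6, which overlapped both ligands. Its difference was 0.15 from LPS and 0.0032 from PAM after thinning, and ran from -0.24 (without LPS replicate 2) to 0.0056 (without CpGB replicate 1) against LPS with 1 library left out. No other named gene changed sign under the alternatives run. For 168 single genes recomputed against Ctrl, 1959 values kept sign and call, 89 lost the call and 66 gained it.

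Groups share replicate numbers that the labels do not tie to a batch. Same-numbered libraries of CpGB and Ctrl deviated together with correlations of -0.0034, 0.012 and 0.016. For CpGB and LPS these were 0.030, -0.012 and 0.041, and for CpGB and PAM 0.042, 0.047 and 0.032. For HMW with CpGB and HMW they were -0.0029, 0.069 and 0.034. Single libraries this shallow hold much counting error, so low correlations do not settle whether the numbers pair libraries. A replicate block gave 507 higher and 300 lower against Ctrl, 65 and 139 against LPS, 223 and 56 against PAM and 373 and 277 with HMW. Under the block Gpi1 was called lower (adjusted p 0.0058).

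At these depths 1 UMI was worth 9.60 to 13.9 CPM in Ctrl, so falls to near 0 and genes under 100 CPM are loosely measured. Falls were recovered less often than rises on simulated data.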
